A study of Mus musculus with 9 samples.

Results

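BV+ and BV− cells carrying an empty vector were compared in 4 of the 9 RNA-seq libraries of the series, with 2 libraries of each population. Both populations came from BVSC PSCs, a mouse pluripotent stem cell line in which mVenus reports Blimp1 (the protein of Prdm1) and CFP reports Stella (the protein of Dppa3), and BV+ means positive for the Blimp1 reporter. The PSCs had been kept without feeder cells, carried the DOX-inducible p20 vector without an insert (Ctrl), were differentiated as embryoid bodies (EBs) in serum, received 1.5 μg/mL DOX from day 2 to day 5, and were separated by flow cytometry at day 5. The other 5 libraries came from the same line with the vector expressing NRF1 (NRF1 OE), as BV+ cells (n = 2) and BV− cells (n = 3). The libraries were assigned to their groups by their titles, and the labels give every sample the same cell type, pluripotent stem cells. The labels do not say that the 2 libraries of a group came from separate cultures, while the study's methods speak of biological duplicates or replicates without naming these libraries. The p-values measure the spread between these libraries only. The 4 libraries held between 14922217 and 18682136 counts each, and 16903 of the 56691 genes in the tables were expressed highly enough to be tested.

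Primordial germ cells (PGCs) are the embryonic founders of eggs and sperm. Blimp1, together with PRDM14 and TFAP2C, is known to shut down the somatic programme and restore pluripotency genes when the epiblast gives rise to PGCs, and Stella appears soon afterwards. In EBs, cells that leave pluripotency also form mesoderm, endoderm and neuroectoderm, and Blimp1 itself is used outside the germline, for example in endoderm. In bulk libraries such as these, a lower share of cells of one type and less RNA per cell cannot be told apart.

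In the quasi-likelihood F test of edgeR on all 9 libraries, 186 genes were higher in BV+ than in BV− cells at an adjusted p under 0.05, which is 1.10% of the genes tested. Only 4 genes, or 0.0237%, were lower. The median log2 fold change (log2FC, BV+ minus BV−) over all tested genes was −0.01, and that of the 186 genes was 1.95. At the cutoffs of the study, an unadjusted p under 0.05 and an absolute log2FC above 0.58, 971 genes passed, or 5.74%, of which 820 were higher in BV+ cells and 151 lower. Of the 186 genes that rose, 36 stood in any of the 38 gene lists that were read, and 150 stood in none. The lists hold a small part of the genes tested, and that share was not counted. Called members included 9 of 37 collagens, 6 of 28 imprinted genes and 4 of 13 genes of heart and paraxial mesoderm. The reporter genes Prdm1 and Dppa3 and the naive and core pluripotency genes did not pass the test in either direction, and of the PGC regulators and germ cell markers Lin28b alone did. A fit of the 4 Ctrl libraries alone tested 16118 genes and called 717 higher (4.45%) and 173 lower (1.07%), with 188 of the 190 genes of the first fit among them. In the fit of all libraries the count of 190 calls also turned on single libraries. It was 73 without BV+ replicate 1, 52 without BV+ replicate 2, 31 without BV− replicate 1, 64 without BV− replicate 2, and 484 without replicate 2 of the BV− cells with NRF1 OE. Of 51 called genes that were run under 17 alternatives each, 12 kept the call in all 17 (Bgn, Col12a1, Col1a1, Col1a2, Foxc1, Gucy1b1, Igfbp5, Mef2c, Myh7, Pcdh7, Plagl1 and Tnc), and the others lost it without at least 1 of the 4 Ctrl libraries. Leaving out an NRF1 OE library was not among these 17.

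**Figure D1:**
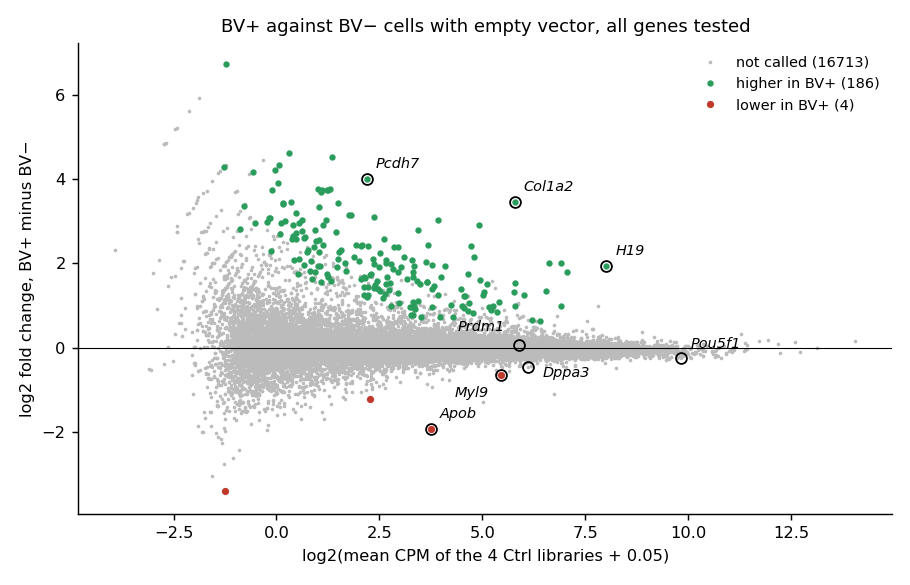
Log2FC of BV+ against BV− cells with empty vector (vertical axis) against the mean level of the 4 libraries (horizontal axis, log2 CPM with 0.05 added). Each dot is 1 of 16903 genes, green for the 186 called higher in BV+ cells and red for the 4 called lower. Prdm1 lies near 0, and Pou5f1 (−0.26) and Dppa3 (−0.45) lie somewhat below it. Pcdh7, Col1a2 and H19 lie further above 0 and Apob further below.

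The promoters of the reporter gene, of the abundant collagen gene with the largest rise and of the gene with the largest fall among those with at least 5 CPM are shown first, since the results turn on these genes. The sequences are those of RefSeq on GRCm38.p6, from 250 bases before to 50 bases after the annotated start, 5′ to 3′ on the strand of the gene. The counts had been made on another build, GRCm39, so the positions serve only to identify the sequence. Capitals mark matches on either strand to CCAAT, the box bound by NF-Y, or to TATAAA, the TATA box. The promoter of Prdm1 lies on the minus strand at chr10:44458699-44458998, that of Col1a2 on the plus strand at chr6:4505368-4505667, and that of Apob on the plus strand at chr12:7977427-7977726.
Prdm1: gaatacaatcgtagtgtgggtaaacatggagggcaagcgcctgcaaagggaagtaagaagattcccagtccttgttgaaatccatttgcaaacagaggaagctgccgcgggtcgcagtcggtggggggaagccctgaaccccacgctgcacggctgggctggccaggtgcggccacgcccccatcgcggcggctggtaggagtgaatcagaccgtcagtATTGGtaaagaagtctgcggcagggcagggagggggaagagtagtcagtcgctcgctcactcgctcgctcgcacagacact
Col1a2: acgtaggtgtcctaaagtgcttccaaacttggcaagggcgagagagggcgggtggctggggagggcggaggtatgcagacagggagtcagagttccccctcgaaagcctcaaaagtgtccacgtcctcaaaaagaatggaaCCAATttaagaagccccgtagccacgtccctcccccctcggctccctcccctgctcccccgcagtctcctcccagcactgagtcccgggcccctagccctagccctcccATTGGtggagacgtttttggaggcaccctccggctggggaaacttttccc
Apob: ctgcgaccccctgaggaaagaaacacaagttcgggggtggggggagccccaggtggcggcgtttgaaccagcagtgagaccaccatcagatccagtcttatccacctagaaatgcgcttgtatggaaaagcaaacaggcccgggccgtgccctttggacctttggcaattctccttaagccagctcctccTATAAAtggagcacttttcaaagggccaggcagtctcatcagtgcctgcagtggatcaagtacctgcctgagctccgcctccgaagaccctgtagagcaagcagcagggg

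The Prdm1 promoter held 1 CCAAT match and 20 CG dinucleotides, the Col1a2 promoter 2 CCAAT matches and 13 CG dinucleotides, and the Apob promoter 1 TATAAA match and 9 CG dinucleotides. By symbol, 132 of the 186 genes higher in BV+ cells matched the RefSeq table, with 184 promoters. TATAAA was found in 11.4% of these promoters, in 7.51% of the promoters of all genes tested and in 13.6% of all promoters in the table, and CCAAT in 31.5%, 38.1% and 37.4%. GCGCATGC, a core of the sequence bound by NRF1 that was also searched on both strands, was found in 1 of the 184 promoters (0.543%), in 4.80% of those of genes tested and in 2.71% of all. The median number of CG dinucleotides was 13.5 in the promoters of the genes higher in BV+ cells, 19 in those of genes tested and 7 in all promoters of the table. These are descriptions of 300-base windows and no site was shown to be bound.

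Prdm1, the gene behind the reporter used for sorting, was read at nearly the same level in both populations. It gave 57.5 and 62.8 CPM, that is counts scaled to the library size, in BV+ cells against 58.6 and 57.3 CPM in BV− cells. The ranges overlapped, and the log2FC was 0.05, with a 95% interval from −0.31 to 0.42 (edgeR, adjusted p = 1.00). Dppa3, the gene behind the CFP reporter, gave 60.3 and 56.7 CPM in BV+ cells and 79.1 and 81.1 CPM in BV− cells. Both BV+ libraries thus lay below both BV− libraries, at a log2FC of −0.45 (interval −0.75 to −0.15) that did not pass over all genes (edgeR, adjusted p = 0.223). Such separation was common with 2 libraries of each population. Both BV+ values were the lower ones in 25.4% of all genes and the higher ones in 22.6%. In the fit of the 4 libraries alone the same gene was called lower in BV+ cells (edgeR, adjusted p = 0.00112).

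The other specification regulators gave no call either. Prdm14, a PR-domain factor of early PGCs, gave 23.3 and 22.9 CPM in BV+ cells and 25.8 and 26.3 CPM in BV− cells, with a log2FC of −0.18 (interval −0.50 to 0.15). Tfap2c, which encodes AP2γ, gave 42.3 and 41.9 CPM against 44.3 and 42.8 CPM, with a log2FC of −0.05 (interval −0.36 to 0.26). Nanos3, an RNA-binding protein needed for PGC survival, gave 2.69 and 3.04 CPM in BV+ cells and 4.47 and 3.79 CPM in BV− cells. Its log2FC was −0.52 with an adjusted p of 0.571 in edgeR, and the 2 BV+ values were the lower ones. Of the 18 genes listed as PGC regulators and germ cell markers, 1 was called higher, 0 lower and 17 not, with a median log2FC of −0.13. Over all genes, 1.10% were called higher and 0.0237% lower. The fit of the 4 libraries alone called 2 of the 18 higher and 1 lower (Dppa3), where it called 4.45% and 1.07% of all genes. With NRF1 OE, 3 were called higher and 5 lower, where 9.90% and 3.85% of all genes were.

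Lin28b was the only one of these 18 genes called in the fit of all libraries. It encodes an RNA-binding protein that blocks let-7 maturation and lets Blimp1 protein accumulate in the making of PGCs. It gave 44.6 and 50.4 CPM in BV+ cells and 26.7 and 22.4 CPM in BV− cells, which is a 1.94-fold difference with no overlap (log2FC 0.95, SE 0.20, edgeR adjusted p = 0.0490). Each of the 4 Ctrl libraries was needed for that call. Without any 1 of them, and in 3 of the other settings tried, the adjusted p of Lin28b was above the threshold while its log2FC stayed between 0.80 and 1.08. Late germline and meiotic genes, which are turned on once PGCs reach the gonad, were called in 0 of 25 cases, with a median log2FC of −0.22. As 1.10% of all genes were called higher and 0.0237% lower, a count of 0 in a list of this size is near the background. The fit of the 4 libraries alone called 3 of them lower (Mael, Piwil2 and Tex19.1), where it called 1.07% of all genes lower, and with NRF1 OE 6 were called lower, where 3.85% of all genes were.

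**Figure D2:**
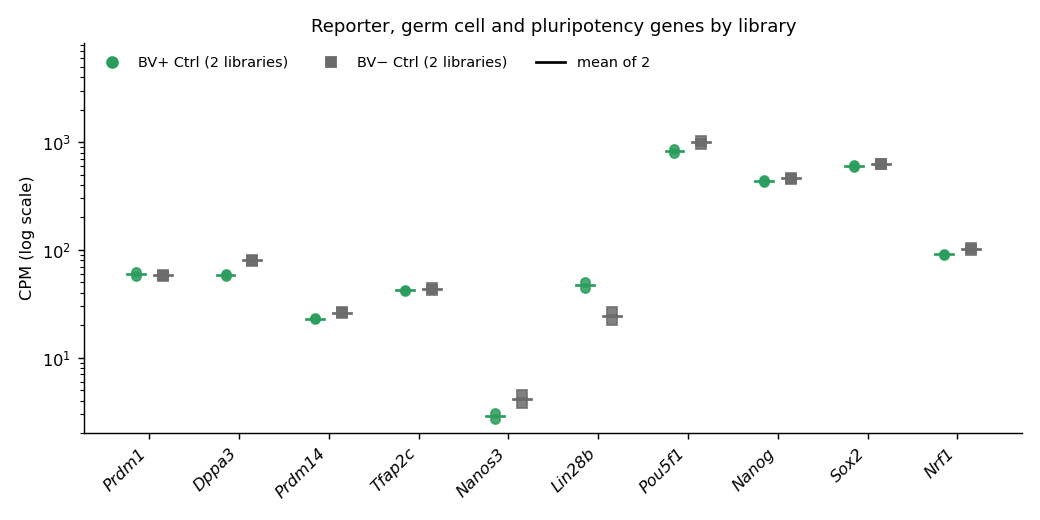
Level of the reporter, germ cell and pluripotency genes in each library (vertical axis, CPM on a log scale). Green circles are the 2 BV+ Ctrl libraries, grey squares the 2 BV− Ctrl libraries and short lines their means. Only Lin28b stands visibly higher in BV+ cells, whereas Dppa3 and Nanos3 stand somewhat lower.

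Pluripotency genes were abundant in both populations. Pou5f1, which encodes OCT4, gave 869.9 and 798 CPM in BV+ cells and 962 and 1034 CPM in BV− cells. Per length, this was a mean of 379.7 FPKM in BV+ cells and 446 FPKM in BV− cells, above Sox2 at 297 and 305 FPKM and Nanog at 198 and 207 FPKM. The 2 BV+ values of Pou5f1 were the lower ones, with a log2FC of −0.26 (interval −0.51 to −0.01) that was not called over all genes (edgeR, adjusted p = 0.601). For Nanog the log2FC was −0.09 (interval −0.33 to 0.15), and for Sox2, its partner in the core network, it was −0.07 (interval −0.32 to 0.19). Of the 16 naive pluripotency genes 0 were called, and of the 14 core pluripotency genes 0, with medians of −0.06 and −0.11. As 1.10% of all genes were called higher and 0.0237% lower, counts of 0 in lists of this size are near the background. In the fit of the 4 libraries alone, 4 core genes were called lower in BV+ cells (Pou5f1, Utf1, Dppa4 and Gdf3) and 0 higher, where 1.07% of all genes were called lower and 4.45% higher. Of the naive genes, the same fit called 2 lower (Fbxo15 and Dppa5a) and 1 higher. The labelled cell type, pluripotent stem cells, thus had its defining markers in both populations. Since the germ cell markers did not set BV+ cells apart, the populations are called by their sort, BV+ and BV− cells, and by no cell type.

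Nrf1, the transcription factor under study, is not overexpressed from the empty vector. It gave 91.1 and 90.4 CPM in BV+ cells and 99.1 and 105 CPM in BV− cells. The log2FC was −0.17 with an interval from −0.40 to 0.06 (edgeR, adjusted p = 0.819). NRF1 drives nuclear genes of mitochondrial respiration, and of these 0 of 38 complex I genes and 0 of 40 genes of complexes II to V were called, with medians of −0.14 and −0.11. Such counts are near the 1.10% and 0.0237% of all genes called higher and lower. With the 4 libraries alone, 1 complex I gene was called higher and 1 lower (Ndufa11), and 3 genes of complexes II to V were called lower (Cyc1, Cox4i1 and Atp5e), where 4.45% and 1.07% of all genes were called higher and lower. Only 1 of the 38 complex I genes had a log2FC above 0, where 48.0% of all genes tested did. Protein genes of the mitochondrial genome were called in 0 of 13 cases, with a median of 0.07, and their summed level was 38938 and 42864 CPM in BV+ cells and 32832 and 41099 CPM in BV− cells. Glycolysis genes were also called in 0 of 22 cases.

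The largest rise among named genes with at least 5 CPM in BV+ cells was that of Pcdh7, a protocadherin of the cell surface. It gave 7.93 and 9.07 CPM in BV+ cells and 0.441 and 0.587 CPM in BV− cells. This was a 16.2-fold difference (log2FC 4.02, SE 0.28, edgeR adjusted p = 0.000236). Col1a2, which encodes the second chain of type I collagen, gave 99.8 and 102 CPM against 7.25 and 10.9 CPM. The log2FC was 3.46 (SE 0.30, edgeR adjusted p = 0.000552), and the groups lay far apart. The partner chain Col1a1 gave 17.7 and 19.9 CPM against 1.95 and 3.36 CPM, a 6.98-fold rise (log2FC 2.80, SE 0.23). Some of the genes called overlap another gene, on the same or on the opposite strand. Because the counting may not have used the strand, reads of Pcdh7, and likewise of Six3os1, Tnc, H19, Igf2, Plagl1, Cdkn1c, Myh7, Zeb2, Krt7, Fgf10, Jun, Des and Ftl1, cannot be told from those of an overlapping opposite gene.

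Type I and type III collagens form the fibrils of connective tissue, and 9 of the 37 collagen genes tested were called higher, 0 lower and 28 not, where 1.10% of all genes were called higher. The members called were Col1a1, Col1a2, Col3a1, Col4a5, Col4a6, Col5a2, Col8a1, Col11a1 and Col12a1. Col3a1 had the largest log2FC, 3.92 (SE 0.52, edgeR adjusted p = 0.00454), on 26 and 38 counts in BV+ cells and 1 and 3 counts in BV− cells, and it was 4.70 without BV− replicate 2. Col12a1, a collagen on the fibril surface, gave 4.59 and 4.83 CPM against 0.504 and 0.855 CPM. The most abundant member, Col18a1, gave 615.2 and 615 CPM in BV+ cells and 658 and 703 CPM in BV− cells and was not called. The median log2FC of the collagens was 0.29. Of the basement membrane collagens, Col4a5 and Col4a6 rose, while Col4a1 gave 166 and 169 CPM against 167 and 163 CPM.

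Several other genes stood among the 12 largest rises. Bgn, the small proteoglycan biglycan, gave 6.88 and 5.09 CPM in BV+ cells and 0.504 and 0.801 CPM in BV− cells (8.90-fold, edgeR adjusted p = 0.00115). Gucy1b1, the beta subunit of the nitric oxide receptor guanylate cyclase, gave 5.77 and 6.66 CPM against 0.504 and 0.855 CPM (8.93-fold, edgeR adjusted p = 0.00104). Cdh6, a type II cadherin, gave 10.5 and 10.4 CPM against 1.32 and 2.14 CPM (5.95-fold, edgeR adjusted p = 0.00239). In these 3 genes the groups were far apart, although a lack of overlap was part of the rule that chose them. Cd40, a receptor of the TNF receptor family, rose 5.47-fold from 1.32 and 1.01 CPM in BV− cells to 6.36 and 6.40 CPM in BV+ cells. Six3os1, a noncoding RNA next to and overlapping the forebrain gene Six3, gave 7.93 and 10.4 CPM against 0.315 and 1.71 CPM. Its 2 BV− libraries lay wide apart, its log2FC of 3.12 was 4.81 without BV− replicate 2 and 2.42, no longer called, without BV− replicate 1, and Six3 on the opposite strand gave 3.67 and 4.41 CPM against 0.567 and 1.50 CPM (edgeR, adjusted p = 0.0518). Igfbp5, a secreted binding protein of insulin-like growth factors, gave 45.1 and 43.3 CPM against 6.24 and 10.2 CPM. Tnc, the matrix glycoprotein tenascin C, gave 4.46 and 5.14 CPM against 0.0630 and 0.320 CPM, and its log2FC of 4.53 became 3.88 without BV− replicate 1 and 6.07 without BV− replicate 2. Igfbp5 and Tnc lie outside the rule for named genes and were chosen after their values were seen.

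**Figure D3:**
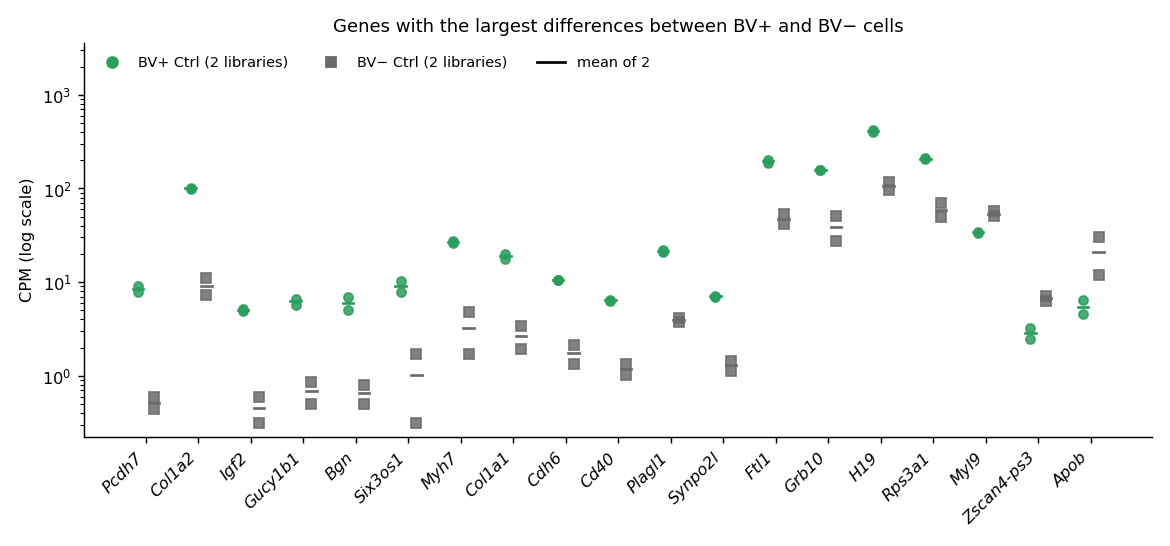
Level in each library of the genes with the largest differences (vertical axis, CPM on a log scale), ordered by log2FC from the highest at the left. Green circles are BV+ and grey squares BV− libraries, and short lines are means of 2. In every gene shown the 2 populations do not overlap, which was a condition for the largest rises and falls. The 2 BV− values of Apob and Six3os1 lie wide apart.

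Imprinted genes, which are expressed from 1 parental copy and many of which set fetal growth, were called higher in 6 of 28 cases and lower in 0, where 1.10% and 0.0237% of all genes were, with a median log2FC of 0.22. The fit of the 4 libraries alone called 12 of them higher and 0 lower, where it called 4.45% and 1.07% of all genes. H19, a maternally expressed noncoding RNA, gained the most in absolute terms. It gave 419.8 and 401 CPM in BV+ cells and 96.8 and 116 CPM in BV− cells (3.85-fold, log2FC 1.94, SE 0.37, edgeR adjusted p = 0.0300). Its neighbour Igf2, the paternally expressed growth factor, gave 5.18 and 4.93 CPM against 0.315 and 0.587 CPM (10.8-fold, edgeR adjusted p = 0.0175). The groups did not overlap in either gene, which was a condition of the rule that chose them. Both calls were lost in edgeR without any 1 of the 4 Ctrl libraries, at a log2FC of H19 between 1.82 and 2.06 (adjusted p from 0.127 to 0.349) and of Igf2 between 3.09 and 3.95 (adjusted p from 0.0835 to 0.244).

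Plagl1, a zinc finger factor of the imprinted network, gave 20.8 and 22.2 CPM in BV+ cells and 4.16 and 3.74 CPM in BV− cells (5.45-fold, edgeR adjusted p = 0.00124). Grb10, an adaptor that restrains insulin signalling, gave 157.1 and 157.7 CPM against 27.7 and 50.6 CPM (4.01-fold, edgeR adjusted p = 0.00552). Dlk1, a Notch-like ligand, gave 8.52 and 7.76 CPM against 2.14 and 3.26 CPM, and Cdkn1c, which encodes the cell cycle inhibitor p57, gave 14.6 and 17.0 CPM against 5.10 and 5.45 CPM. Paternally expressed Peg3 gave 298 and 302 CPM against 160.3 and 140 CPM but missed the threshold (edgeR, adjusted p = 0.0769). Mest, the most abundant imprinted gene, gave 623 and 619 CPM against 607 and 637 CPM. Meg3, a noncoding RNA of the Dlk1 domain, gave 223 and 278 CPM against 238 and 189 CPM, values that overlapped, and was not called.

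Genes of heart and paraxial mesoderm gave 4 calls among 13 tested, all higher in BV+ cells, where 1.10% of all genes were called higher, with a median log2FC of 0.46. Foxc1, a forkhead factor of mesenchyme, gave 4.91 and 4.04 CPM in BV+ cells and 0.252 and 0.374 CPM in BV− cells (13.8-fold, log2FC 3.78, SE 0.34, edgeR adjusted p = 0.000590). Mef2c, a factor of muscle and heart development, gave 3.47 and 4.62 CPM against 0.567 and 0.427 CPM (8.14-fold, edgeR adjusted p = 0.00124). Isl1, a marker of second heart field progenitors, gave 2.69 and 1.26 CPM against 0.378 and 0.107 CPM, and Tnnt2, cardiac troponin T, gave 1.70 and 1.15 CPM against 0.0630 and 0.267 CPM. Myh7, the slow myosin heavy chain, was among the largest rises, with 26.5 and 27.3 CPM against 1.70 and 4.75 CPM (8.15-fold, edgeR adjusted p = 0.00221). Its log2FC of 3.03 became 2.50 without BV− replicate 1 and 3.95 without BV− replicate 2, and the gene overlaps Mhrt on the opposite strand, whose reads may be counted with it. Isl1 and Tnnt2 were no longer called by edgeR without any 1 of the 4 Ctrl libraries. Their log2FC was 4.09 and 2.37 without BV− replicate 1 and 2.31 and 4.31 without BV− replicate 2. That of Isl1 was 2.40 without BV+ replicate 1. Of 17 alternatives, Isl1 was called in 12 and Tnnt2 in 9. The sarcomere gene Synpo2l rose 5.41-fold, with 7.01 and 7.08 CPM against 1.13 and 1.44 CPM. The most abundant member of the heart and paraxial list, Tcf15, gave 22.5 and 20.9 CPM against 24.5 and 28.3 CPM, and neither it nor Gata4, Actc1, Pdgfra or Myh6 was called. The summed level of the list was 73.5 and 72.6 CPM in BV+ cells and 64.8 and 72.4 CPM in BV− cells.

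Lateral and extraembryonic mesoderm genes had the highest median of the 38 lists, 1.56. Of the 12 members tested, 10 lay above 0, where 48.0% of all genes did. The test called 2 of them higher, where 1.10% of all genes were called higher. The fit of the 4 libraries alone called 6 higher and 0 lower, where it called 4.45% and 1.07% of all genes. With NRF1 OE, 9 were called higher and 0 lower, where 9.90% and 3.85% of all genes were. Kdr, the VEGF receptor of early vessel and blood progenitors, gave 6.55 and 8.55 CPM in BV+ cells and 1.89 and 2.56 CPM in BV− cells (3.37-fold, log2FC 1.75, SE 0.27, edgeR adjusted p = 0.00869). Tbx2, a T-box factor, gave 2.29 and 2.31 CPM against 0.315 and 0.427 CPM. Hand1, a defining gene of this list that was not called, gave 1.70 and 1.15 CPM against 0.189 and 0.427 CPM (edgeR, adjusted p = 0.148). The summed level of the list was 29.8 and 32.7 CPM in BV+ cells and 15.3 and 18.4 CPM in BV− cells, so the groups did not overlap. Genes of the primitive streak, the source of this mesoderm, were called in 0 of 14 cases, with a median of 0.33, and its defining gene Mesp1 was listed at no more than 0.0534 CPM in any library.

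Markers of other cells that the sort could hold were read as whole lists. Blood and endothelium gave 2 calls among 18 (Kdr and Cdh5, the cadherin of vessel walls, at 2.36 and 1.89 CPM against 0.378 and 0.587 CPM). Over all genes, 1.10% were called higher and 0.0237% lower. The list had a median of 0.90, and summed levels of 204.1 and 191 CPM against 193.6 and 202 CPM that overlapped. The fit of the 4 libraries alone called 3 of its members higher and 0 lower, where it called 4.45% and 1.07% of all genes. With NRF1 OE, 11 were called higher and 0 lower, where 9.90% and 3.85% of all genes were. Fibroblast and contractile genes gave 0 calls higher and 1 lower among 17, a median of 0.32, and summed levels of 801 and 803 CPM in BV+ cells and 715 and 745 CPM in BV− cells. In the fit of the 4 libraries alone, 6 members of that list were called higher and 1 lower, where 4.45% and 1.07% of all genes were, and with NRF1 OE 10 were called higher and 1 lower, where 9.90% and 3.85% of all genes were. The fibroblast markers Lum and Dcn did not exceed 0.262 CPM in any library. The part that such cells had in the rise of collagens, Kdr and the heart genes was not tested.

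Cadherins and genes of the epithelial to mesenchymal transition (EMT) gave 4 calls among 15, all higher in BV+ cells, where 1.10% of all genes were called higher. The fit of the 4 libraries alone called 6 of them higher and 1, Cdh3, lower, where it called 4.45% and 1.07% of all genes. Cdh2, which encodes N-cadherin, gave 26.1 and 24.5 CPM in BV+ cells and 11.1 and 13.8 CPM in BV− cells (2.02-fold, edgeR adjusted p = 0.0183). Zeb2, a repressor of epithelial genes, gave 7.41 and 7.60 CPM against 2.77 and 2.83 CPM (2.67-fold, edgeR adjusted p = 0.00658). Cdh5 and Cdh6 were the other calls. Cdh1, which encodes E-cadherin, gave 288 and 278 CPM against 318 and 338 CPM, and the most abundant member Fn1, fibronectin, gave 1368 and 1363 CPM against 1308 and 1267 CPM. Neither was called.

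Neuroectoderm genes gave 1 call among 16, where 1.10% of all genes were called higher, with a median of 0.75. The fit of the 4 libraries alone called 5 of them higher and 0 lower, where it called 4.45% and 1.07% of all genes. With NRF1 OE, 8 were called higher and 0 lower, where 9.90% and 3.85% of all genes were. Nes, the intermediate filament nestin of neural and muscle progenitors, gave 26.4 and 27.9 CPM in BV+ cells and 4.85 and 9.13 CPM in BV− cells (3.84-fold, edgeR adjusted p = 0.00869). Sox1, a defining gene of neural plate, gave 26.0 and 29.0 CPM against 14.6 and 18.9 CPM and missed the threshold (edgeR, adjusted p = 0.177). Surface ectoderm and trophoblast gave 1 call among 9, Krt7, a keratin of simple epithelia, at 1.70 and 2.67 CPM against 0.315 and 0.374 CPM. In the fit of the 4 libraries alone 2 members of this list were called higher and 0 lower, and with NRF1 OE also 2 and 0.

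In the fit of all libraries, signalling genes showed single calls in a list or none, and these calls were all higher in BV+ cells. Over all genes, 1.10% were called higher and 0.0237% lower. Among BMP ligands, 1 of 8 was called, Bmp1, which despite its name is a protease that matures collagens, at 10.4 and 15.1 CPM against 2.65 and 4.06 CPM (3.77-fold, edgeR adjusted p = 0.0100). Of the BMP receptors and SMADs 0 of 10 were called, and of the BMP targets and inhibitors 0 of 15. Of these 15, 14 had a log2FC above 0, where 48.0% of all genes did, and their median was 0.58. The fit of the 4 libraries alone called 3 of the 15 higher and 0 lower, where it called 4.45% and 1.07% of all genes. With NRF1 OE, 10 were called higher and 0 lower, where 9.90% and 3.85% of all genes were. The WNT receptor gene Fzd1 was the 1 call among 18 WNT ligands and receptors, at 4.06 and 3.36 CPM against 1.51 and 0.961 CPM, and the secreted WNT inhibitor Frzb the 1 call among 14 targets and antagonists, at 4.59 and 4.04 CPM against 0.126 and 0.481 CPM. The log2FC of Frzb was 3.74, but 3.14 and no longer called without BV− replicate 1 and 4.99 without BV− replicate 2. Fgf10, a mesenchymal growth factor, was the 1 call among 20 FGF genes. Of the Notch genes 0 of 16 and of the retinoic acid genes 0 of 16 were called. The fit of the 4 libraries alone called 3 WNT ligands and receptors and 3 WNT targets and antagonists higher, and 0 lower. Of the FGF genes it called 5 higher and 1 lower (Etv4), and of the Notch genes 2 higher and 1 lower (Jag2). It called 1 BMP ligand higher and 1 lower (Gdf3), and 1 retinoic acid gene higher and 0 lower.

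Of 16 immediate early and AP-1 genes, 2 were called higher, where 1.10% of all genes were, and 6 in the fit of the 4 libraries alone, where 4.45% of all genes were. Jun, a subunit of the AP-1 complex, gave 27.3 and 37.0 CPM in BV+ cells and 12.1 and 12.4 CPM in BV− cells (2.63-fold, edgeR adjusted p = 0.0421), and Fosl2, a partner of JUN, gave 3.87 and 5.09 CPM against 1.01 and 1.07 CPM. Cell cycle genes gave 1 call among 29, the inhibitor Cdkn1c, which is near the 1.10% of all genes called higher, and the median was −0.06. Pmaip1, the p53 target NOXA, gave 48.0 and 54.0 CPM against 23.8 and 27.1 CPM and was the 1 call among 15 genes of p53 and apoptosis. Of the genes of DNA methylation 0 of 12, of PRC2 and H3K9 methylation 0 of 15 and of the Hox clusters 0 of 12 were called.

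**Figure D4:**
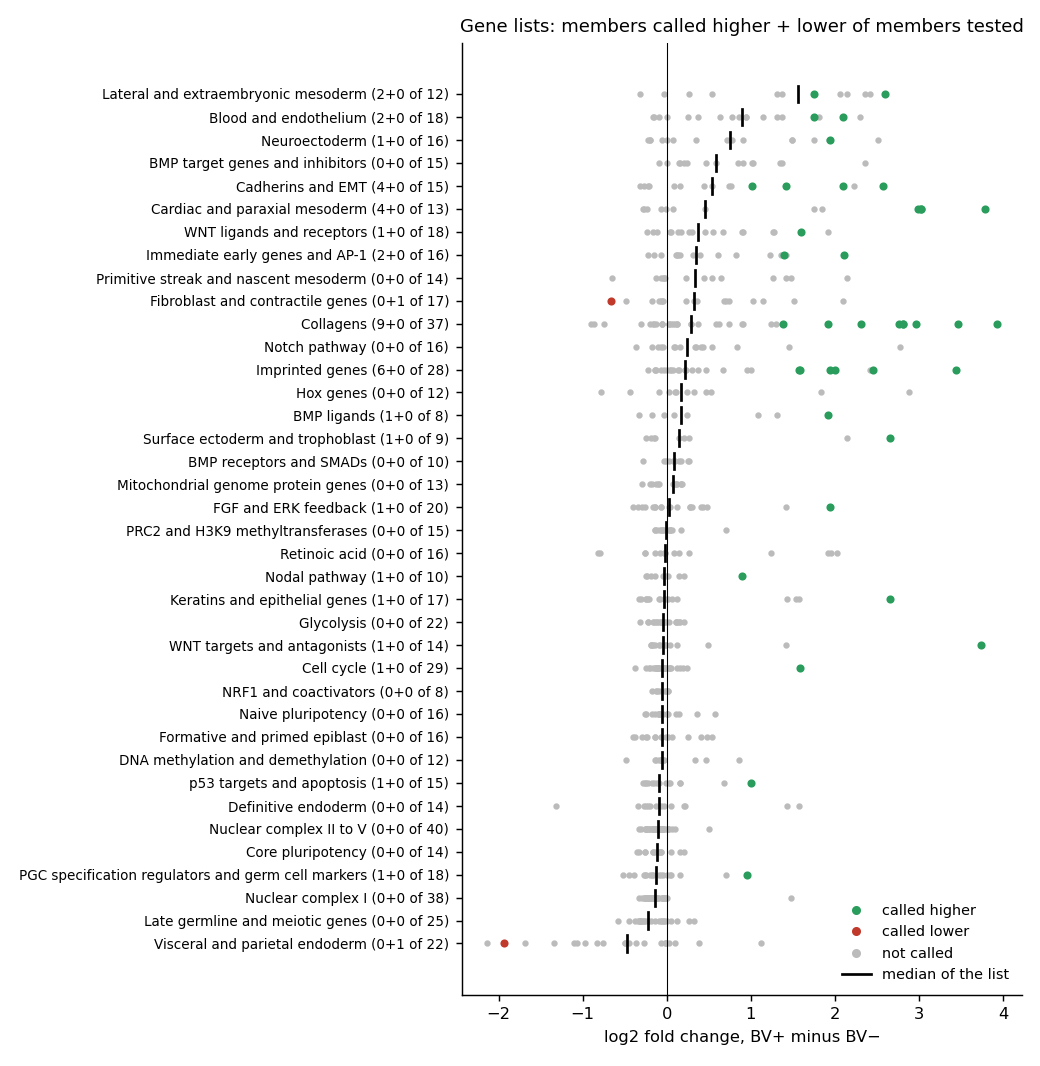
Log2FC of BV+ against BV− cells (horizontal axis) for each tested member of 38 gene lists (rows), ordered by the median, drawn as a black line. Green and red dots are members called higher and lower, grey dots those not called, and each label gives calls higher and lower of members tested. Lateral and extraembryonic mesoderm has the highest median, 1.56, and visceral and parietal endoderm the lowest, −0.47.

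Against 186 rises stood 4 falls. Apob, the apolipoprotein that visceral endoderm and liver secrete, fell to 4.52 and 6.45 CPM in BV+ cells from 30.6 and 11.8 CPM in BV− cells (log2FC −1.93, SE 0.36, edgeR adjusted p = 0.0259). The groups did not overlap, as the rule for the largest falls required. However, the 2 BV− libraries differed by more than the second of them did from BV+ cells. Without BV− replicate 1 the log2FC was −1.10. Myl9, a myosin light chain of contractile cells, fell from 50.7 and 57.4 CPM to 34.5 and 33.8 CPM (log2FC −0.66, edgeR adjusted p = 0.0232). Zscan4-ps3, an annotated pseudogene of the Zscan4 cluster whose reads may belong to its near-identical relatives, gave 2.49 and 3.25 CPM against 7.18 and 6.30 CPM (log2FC −1.22, edgeR adjusted p = 0.0321). The fourth, 1110019B22Rik, rested on 1 count in each BV+ library and 9 and 15 counts in BV− cells, and it is named after its values were seen because the falls were only 4. Without either BV+ library or without the first BV− library none of the 4 was called by edgeR, and without the second BV− library 2 genes were called lower.

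Visceral and parietal endoderm genes had the lowest median of the lists, −0.47, with 1 call among 22. That call, Apob, was lower, where 0.0237% of all genes were called lower and 1.10% higher. Cubn, the uptake receptor cubilin, gave 62.0 and 73.3 CPM in BV+ cells and 177 and 113.2 CPM in BV− cells and just missed the threshold (log2FC −1.10, edgeR adjusted p = 0.0619). Ttr, the carrier transthyretin, gave 1.05 and 0.997 CPM against 4.10 and 2.56 CPM, and Hnf4a, a master regulator of endoderm, gave 3.41 and 4.04 CPM against 7.12 and 5.55 CPM. In all 3 genes both BV+ libraries lay below both BV− libraries, as they did in 25.4% of all genes. The fit of the 4 libraries alone called 8 members lower (Ttr, Apoa1, Apob, Cubn, Dab2, Hnf4a, Lama1 and Cited1) and 1 higher, where it called 1.07% of all genes lower and 4.45% higher. Apoe, the most abundant member, gave 639 and 601 CPM against 625 and 635 CPM. The summed level of the list was 1349 and 1333 CPM in BV+ cells and 1497 and 1403 CPM in BV− cells.

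The same contrast was then read in the 5 NRF1 OE libraries, which are other samples. The joint fit of all libraries shares its estimate of the spread between both contrasts but no group. There, 1674 genes were higher in BV+ cells (9.90%) and 651 lower (3.85%), and the 2325 calls became 786 without BV+ replicate 1 and 1514 without BV− replicate 3 of these libraries. Of the 186 genes higher in BV+ cells with empty vector, 186 had a log2FC above 0 in the NRF1 OE libraries and 185 were called higher there. Their median log2FC was 1.95 with empty vector and 2.88 with NRF1 OE, and 170 of the 186 had the larger value with NRF1 OE. Of the 4 lower genes, 3 were called lower there (Apob, Myl9 and Zscan4-ps3).

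Col1a2 shows how far the values went. In the NRF1 OE libraries it gave 602 and 368 CPM in BV+ cells and 17.1, 15.9 and 9.95 CPM in BV− cells. Pcdh7 gave 29.0 and 21.2 CPM against 0.783, 0.663 and 0.652 CPM, and H19 gave 2008 and 951 CPM against 150.1, 253 and 109 CPM. In each of these genes both BV+ libraries lay above all 3 BV− libraries, and above both BV+ libraries with empty vector. Prdm1 again did not separate the populations, with 53.3 and 56.4 CPM against 62.0, 42.4 and 59.8 CPM. Dppa3 was lower in BV+ cells there as well, with 96.6 and 86.3 CPM against 162.4, 144 and 124 CPM (edgeR, adjusted p = 0.00536).

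When each side was fitted on its own libraries, with nothing shared, 715 of the 717 genes called higher on the 4 Ctrl libraries were tested on the 5 NRF1 OE libraries. Of these, 712 were above 0 and 595 were called higher, beside 53.1% of all 16148 genes above 0 and 7.32% called higher in the same fit. Of the 173 genes called lower, 171 were tested, 157 were below 0 and 35 were called lower, beside 0.483% of all genes. The difference between the 2 contrasts was called for 0 genes by edgeR in the joint fit, with 932 genes at an unadjusted p under 0.05, and for 23 genes by DESeq2 on the same libraries. Without BV− replicate 2 of the NRF1 OE libraries, edgeR called 33. A larger value with NRF1 OE was therefore not shown gene by gene. Across the 16903 genes, which are not independent replicates, Pearson's r between the log2FC of both contrasts was 0.69 and Spearman's rho 0.55.

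**Figure D5:**
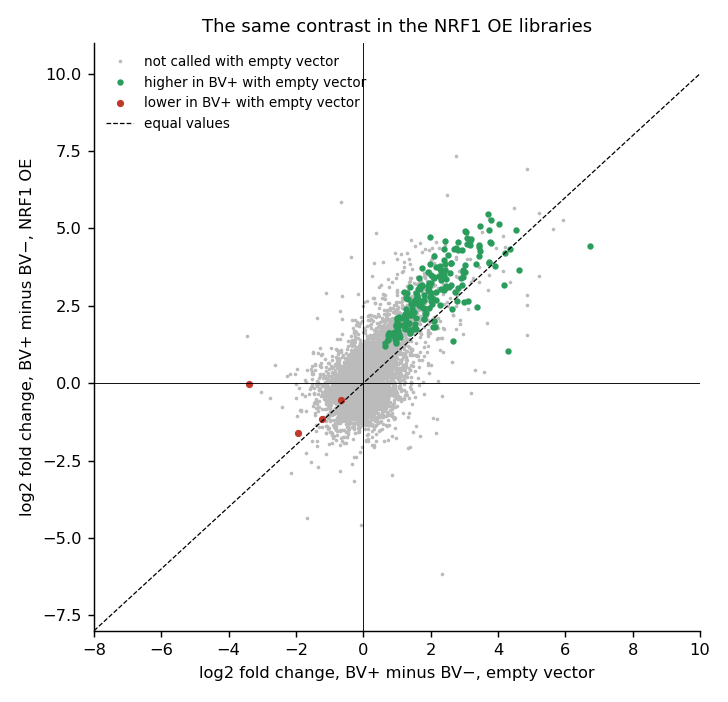
Log2FC of BV+ against BV− cells in the NRF1 OE libraries (vertical axis) against the same contrast with empty vector (horizontal axis), 1 dot per gene tested. Green dots are the 186 genes higher and red dots the 4 lower with empty vector, and the dashed line marks equal values. The green dots lie above 0 on both axes, 170 of them above the dashed line.

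GC content and transcript length moved with the contrast and are given beside it. Across 16662 genes with a known transcript, Spearman's rho of the log2FC was −0.12 with GC content and 0.25 with transcript length. With offsets for each library's trend over both, 294 genes were higher in BV+ cells and 13 lower. Pcdh7, Col1a2 and H19 moved little with these offsets. Their log2FC was 3.86 for Pcdh7, 3.36 for Col1a2 and 1.97 for H19, and the 51 called genes that were run with offsets were all called by edgeR there as well. Genes with small differences moved more for their size. The log2FC of Dppa3 went from −0.45 to −0.33, of Nanos3 from −0.52 to −0.35 and of Pou5f1 from −0.26 to −0.17. That of Nrf1 went from −0.17 to −0.21, and that of Prdm1 turned from 0.05 to −0.03. None of these was called with the offsets.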

How the data were processed

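The 4 Ctrl libraries and the 5 NRF1 OE libraries were taken as GEO's titles group them. The authors isolated poly(A) RNA, sequenced paired reads of 150 bp, trimmed them with Cutadapt 1.9.1 and used the annotation of Ensembl 107; the submitters' processing notes name HISAT2 2.0.1, HTSeq 0.6.1 and GRCm39. The deposited raw counts are not normalized, and FPKM was deposited beside them and used only to compare levels between genes. Use of the strand is not given in the sources used here. Total counts of the 9 libraries ranged from 13702162 to 19625460.

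Counts were tested in R 4.3.3 with edgeR 4.0.16 (filterByExpr, TMM, a term for each of the 4 groups, quasi-likelihood F test, two-sided) and Benjamini-Hochberg adjustment. CPM used the TMM-scaled library sizes, and intervals are 95% intervals from the same fit. The named genes were, for each list, the largest change called, the most abundant member and defining genes not called; the 12 largest rises and falls at an adjusted p under 0.05 with at least 5 CPM in the higher group, no overlap between groups and a symbol other than a Gm or Rik name; the 5 largest CPM differences in each direction; and Prdm1, Dppa3 and Nrf1. The comparison and the gene lists were chosen with earlier results of these data known. Alternatives used DESeq2 1.42.0, other scaling and filters, fewer libraries, the replicate number as a term, thinned counts and offsets. The test was tested on simulated data. Figures used Python 3.11.15 and matplotlib 3.10.9. A few members of the lists are not reported here.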

Additional observations from a re-analysis of the deposited data

How the results depend on the processing

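With DESeq2's size factors, library size or upper-quartile scaling and with thinned counts, the count of 190 calls stayed within 1.5 times. It was 529 (493 higher, 36 lower) without a filter, 890 (717 and 173) with only the 4 libraries, 303 (297 higher) with DESeq2 on 9 libraries, 447 (383 and 64) with DESeq2 on the 4, and 307 (294 and 13) with GC and length offsets. Without BV+ replicate 1 or 2 it was 73 or 52, without BV− replicate 1 or 2 it was 31 or 64 (31 to 73 higher, 0 to 2 lower), the lone library then being assumed to vary like the other groups, and 484 without NRF1 OE BV− replicate 2. The share of calls higher in BV+ cells was 97.9%, and 80.6% with only the 4 libraries, 85.7% with DESeq2 on them. Replicate numbers are shared, but no source says that they pair samples (correlation of deviations −0.10). With the replicate block, 121 genes were higher and 0 lower (9 libraries), 823 were called (701 and 122) on the 4, and for NRF1 OE 1064 and 870. With crossed numbers as the block, added after seeing the data, 2079 were called (1276 and 803). For NRF1 OE, 2325 calls became 1260 (its 5 libraries), 1297 (DESeq2 on them), 3506 (offsets) and 786 to 3182 with 1 library left out. The difference of the contrasts, 0 calls, gave 108 without a filter, 23 with DESeq2, 1 with offsets and the replicate block, and 0 to 33 with 1 library left out. The log2FC of Prdm1 turned to −0.026 with offsets and −0.025 with offsets and the replicate block, and lay between −0.011 (without BV+ replicate 2) and 0.11 with 1 library left out. Of 51 called genes that were run under 17 settings each (not Col4a5, Col4a6, Col5a2, Col8a1, Col11a1 and 1110019B22Rik), 51 kept their direction in all 17 and 12 kept the call. The crossed numbers and the fits without an NRF1 OE library were not among these 17. Causes of these changes were not tested. Depth limits genes with few counts, such as 1110019B22Rik.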

Other observations

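Other genes were read after their values were seen, without a test of a list. Zscan4 genes mark the 2-cell-like state, a transient state of PSC cultures. Zscan4d gave 8.52 and 9.28 CPM in BV+ cells and 16.1 and 16.3 CPM in BV− cells (log2FC −0.86, edgeR adjusted p = 0.217), and Zscan4a, Zscan4c, Zscan4e and Zscan4f had log2FC between −0.99 and −0.78, none of them called by edgeR (adjusted p from 0.184 to 0.577). Zscan4b had a log2FC of −1.01 and was not called either (edgeR, adjusted p = 0.451). With the 4 libraries alone, edgeR called Zscan4a, Zscan4c, Zscan4d and Zscan4e lower in BV+ cells (adjusted p from 0.000366 to 0.0243), where it called 1.07% of all genes lower. It did not call Zscan4f (adjusted p = 0.0752) or Zscan4b (adjusted p = 0.107). In the NRF1 OE libraries edgeR called all of these Zscan4 genes lower (adjusted p from 0.00646 to 0.0412), where it called 3.85% of all genes lower. Zfp352, another gene of that state, gave 0.983 and 0.787 CPM against 1.45 and 0.961 CPM, values that overlapped. The Zscan4 genes are near-identical copies, so their reads may be split among them.

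Single muscle genes outside the lists were also called higher. Des, which encodes desmin, gave 20.8 and 20.6 CPM in BV+ cells and 6.93 and 8.12 CPM in BV− cells (edgeR, adjusted p = 0.0140), and Acta1, skeletal alpha actin, gave 14.4 and 13.4 CPM against 2.46 and 3.74 CPM (edgeR, adjusted p = 0.0142).

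Several housekeeping genes with processed copies in the genome stood among the rises. Rps3a1, a ribosomal protein gene, gave 205 and 212 CPM in BV+ cells and 49.2 and 69.8 CPM in BV− cells (3.49-fold, edgeR adjusted p = 0.00299), whereas the annotated copies Rps3a2 and Rps3a3 gave 257 and 292 against 295 and 303 CPM, and 362 and 337 against 412 and 439 CPM. Ftl1, the ferritin light chain, gave 188 and 201 CPM against 42.2 and 53.3 CPM (4.06-fold, edgeR adjusted p = 0.00239). Its copy Ftl1-ps1 gave 12.5 and 12.7 CPM against 9.14 and 11.2 CPM, and the copy Ftl1-ps2 gave 48.7 and 33.0 CPM against 53.9 and 66.2 CPM. Neither copy was called in the fit of all libraries. Rpl3 gave 152 and 171 CPM against 82.4 and 79.3 CPM, and its copy Rpl3-ps1, at 555 and 569 CPM against 592 and 615 CPM, held more reads than the parent gene. Hprt, a housekeeping enzyme of purine salvage on the X chromosome, gave 9.50 and 9.44 CPM in BV+ cells and 1.32 and 2.56 CPM in BV− cells (4.79-fold, edgeR adjusted p = 0.00484), and 19.9 and 13.2 CPM against 1.26, 1.33 and 1.84 CPM in the NRF1 OE libraries. In the fit of the 4 libraries alone, edgeR called the copies Rps3a3 (adjusted p = 0.0172) and Ftl1-ps2 (adjusted p = 0.0146) lower in BV+ cells. It did not call Rps3a2, Ftl1-ps1 or Rpl3-ps1, and 1.07% of all genes were called lower. With NRF1 OE, Rps3a2, Rps3a3 and Rpl3-ps1 were called lower and Ftl1-ps1 higher, where 3.85% and 9.90% of all genes were. Ftl1-ps2 was not called there. How reads were shared between parents and copies was not tested.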
